A study of Gallus gallus with 4 samples.

Results

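Cells of the chick trunk at 13 somites (13S) were compared with cells at 10 somites (10S), with 8669 cells from the 10S library and 6776 from the 13S library. These 15445 cells were those with at least 2500 unique molecular identifiers (UMIs, each 1 captured transcript) whose name carried the stage, of 25379 cells with that many UMIs in the series of 4 stages. No cell of either library fell under the minimum. Fertilized chicken eggs were incubated without treatment until the embryos had the stated somite number, at least 4 embryos were pooled per stage, and the tissue from the third somite towards the tail was dissociated and sequenced from transcript 3′ ends as 1 droplet library per stage. Strain and sex of the embryos were not given in the sources used here. With 1 pooled library per stage there was no test between stages, and intervals (95%, exact Poisson for levels, exact binomial for ratios and shares) cover counting error only. The spread between embryos was not measured. Each gene was compared over all cells and in 4 sets defined by 1 gene each: MSGN1 with at least 2 UMIs (caudal presomitic mesoderm), MEOX1 with at least 3 (somite), CHRD with at least 10 (notochord) and PAX6 with at least 1 (neural). The question was which genes shifted in the same direction in every set over 3 added somites.

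The trunk is laid down from head to tail by a growth zone at the caudal end, so that embryos with more somites hold more posterior tissue. HOX genes are transcription factors in 4 clusters, numbered by position in the cluster, and higher numbers are switched on later and more posteriorly. FGF8 is a ligand made in the caudal growth zone that holds cells immature, and retinoic acid made by somites opposes it. HES5 is a repressor downstream of Notch receptors, best known for keeping neural progenitors undifferentiated.

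Both libraries had similar depth. The median was 7182 UMIs per cell at 10S and 7432 at 13S, and the sums came to 64453991 and 54196129 UMIs, while the libraries at 4S and 7S had medians of 8849 and 3758. The 10S and 13S libraries shared 14 cell barcodes. Cell yield was 1300 cells per µL with 92% viability at 10S and 1600 cells per µL with 95% viability at 13S. Mitochondrial genes took 4.39% of the UMIs at 10S and 4.90% at 13S, and their share was higher at 13S in each of the 4 marker sets as well. Summed dissociation and stress genes gave 11638 CPM at 10S and 10973 CPM at 13S.

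The MSGN1 set held 1723 cells at 10S and 1325 at 13S, or 19.9% (19.0% to 20.7%) and 19.6% (18.6% to 20.5%) of each library. The MEOX1 set held 1117 and 777 cells, or 12.9% (12.2% to 13.6%) and 11.5% (10.7% to 12.2%). The PAX6 set held 636 and 539 cells, or 7.34% (6.80% to 7.91%) and 7.95% (7.32% to 8.62%). The CHRD set was the smallest, with 326 and 190 cells, or 3.76% (3.37% to 4.18%) and 2.80% (2.42% to 3.23%), and its interval at 13S lay below that at 10S. Cells in no set made up 58.5% and 60.3%. At 10S 202 cells lay in 2 sets and 1 cell in 3 sets, and at 13S 141 cells and 1 cell. Of these, 169 and 118 were positive for both MSGN1 and MEOX1.

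The sets were checked against the markers of their names without the gene that defined each set. The other 4 caudal mesoderm markers found summed to 1022 CPM at 10S and 1057 CPM at 13S in the MSGN1 set, against 597 and 593 CPM over all cells, where CPM is the count of a gene per 1000000 UMIs of the summed cells. The other 5 notochord markers (NOTO, SHH, TBXT, FOXA2, GNOT2) summed to 2871 and 2919 CPM in the CHRD set, against 263 and 251 CPM over all cells. The other 5 somite markers summed to 2403 and 2316 CPM in the MEOX1 set, against 433 and 398 CPM over all cells. The other 5 neural markers summed to 179 and 150 CPM in the PAX6 set, against 24.9 and 25.1 CPM over all cells. Each set was thus above all cells at both stages for the remaining markers of its name. Markers of other cell types moved between stages inside some sets. The 6 blood and endothelial markers (LMO2, TAL1, ETS1, FLI1, HHEX, CDH5) went from 56.9 to 22.5 CPM in the MSGN1 set and from 35.2 to 88.7 CPM in the CHRD set, with none of the 6 at 0. The 5 lateral plate markers went from 56.6 to 23.0 CPM in the MSGN1 set and from 7.14 to 16.1 CPM in the CHRD set, a low level with 1 of the 5 at 0. The 4 caudal mesoderm markers other than MSGN1 went from 520 to 735 CPM in the MEOX1 set and from 335 to 415 CPM in the PAX6 set. In the CHRD set they went from 424 to 294 CPM, and the 5 somite markers other than MEOX1 went from 362 to 233 CPM. The part of all these markers in the results for the sets was not tested.

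The 10S and 13S libraries were alike for most genes. Of the 5061 genes with at least 50 UMIs over both libraries in each of the 5 sets, 94.8% differed over all cells by less than 0.32 on the log2 scale. The agreement was lowest in the CHRD set, with 69.0% of genes within that range, and this set held 1820519 and 1115609 UMIs, the fewest of the sets. Over all cells 649 of 12423 genes (5.22%) were at least 1.5-fold higher at 13S and 375 (3.02%) at least 1.5-fold lower. In the MSGN1 set these shares were 4.33% higher and 3.20% lower, in the MEOX1 set 4.70% and 3.18%, in the CHRD set 4.40% and 5.99%, and in the PAX6 set 5.41% and 2.98%.

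**Figure D1:**
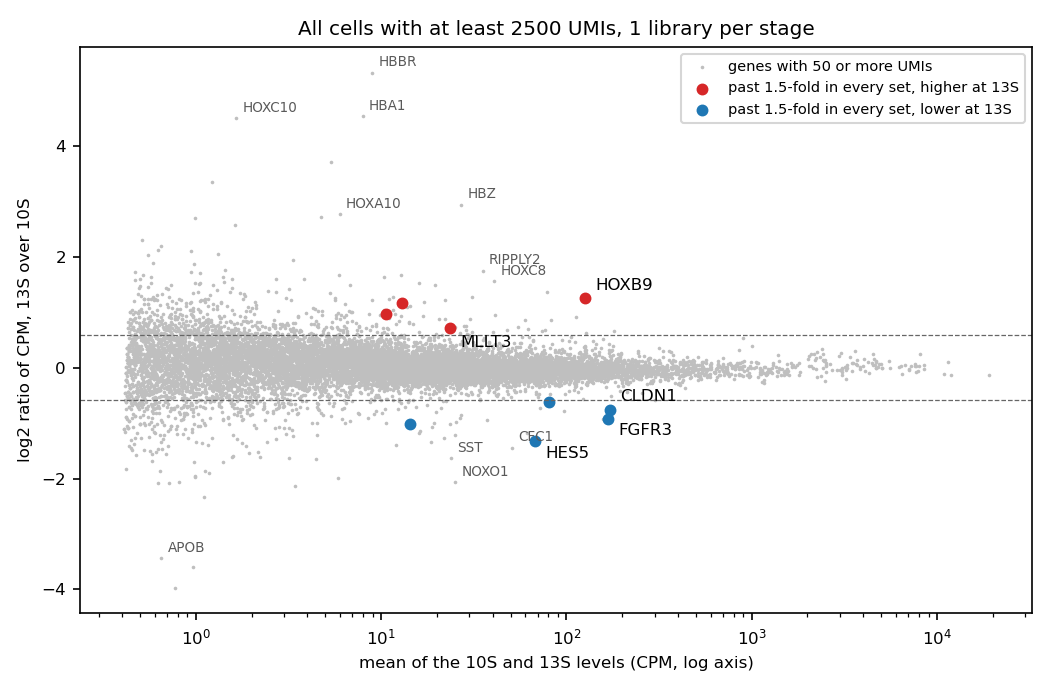
Log2 ratio of CPM at 13S over 10S for each gene with at least 50 UMIs over all cells, against its mean level in CPM on a log axis, with dashed lines at 1.5-fold. The 4 red genes were past 1.5-fold higher in every set and the 5 blue genes past 1.5-fold lower, and they lay among the moderately expressed genes, while globin and HOX10 genes had the largest ratios over all cells.

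Past 1.5-fold in the same direction in all 5 sets were 4 genes higher at 13S (0.0790% of the 5061 assessed) and 5 genes lower (0.0988%). The higher genes were HOXB9, MLLT3, ENSGALG00000048465 and ENSGALG00000042748. The lower genes were HES5, CLDN1, FGFR3, ENSGALG00000013101 and ENSGALG00000048236. A gene that defined a set was not counted in that set. At the limit of 1.5-fold, 0.58 on the log2 scale, FGFR3 and ENSGALG00000048236 lay just inside, each with a smallest log2 ratio of -0.59 in the CHRD set. ROBO2, at 0.56 in the MSGN1 set, and DHRS3, at -0.56 in the MEOX1 set, lay just outside.

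HOXB9 is a HOX gene of posterior trunk identity. Its level over all cells was 74.4 CPM (72.3 to 76.5) at 10S and 178 CPM (174 to 181) at 13S, a log2 ratio of 1.26 (1.21 to 1.31). In the MSGN1 set HOXB9 went from 51.1 to 169 CPM, a log2 ratio of 1.72 (1.60 to 1.85). In the PAX6 set it went from 55.8 to 213 CPM, a log2 ratio of 1.93 (1.74 to 2.13). HOXB9 in the CHRD set was 54.9 CPM (44.7 to 66.8) at 10S and 87.8 CPM (71.3 to 107) at 13S, the smallest difference of the 5 sets, with a log2 ratio of 0.68 (0.26 to 1.09). In the MEOX1 set the level was low at both stages, 2.77 CPM from 22 UMIs and 15.8 CPM from 99 UMIs, and the log2 ratio was 2.51 (1.84 to 3.25). The Poisson intervals of the levels at the 2 stages did not overlap in any of the 5 sets. The log2 ratio of HOXB9 in the CHRD set fell short of 1.5-fold with looser marker minimums (0.42 on 242 UMIs), in cells with at least 5000 UMIs (0.48 on 171 UMIs) and in cells with at most 5% mitochondrial UMIs (0.18 on 104 UMIs).

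After each cell was thinned to 2500 UMIs, HOXB9 had a UMI in 13.8% of cells at 10S and 28.7% at 13S (28.6% and 50.1% unthinned). The share in the MSGN1 set was 9.98% and 30.0%, and in the PAX6 set 9.43% and 30.6%. Cells with at least 3 LMO2 UMIs, which mark blood and endothelium (306 cells at 10S with a median of 6907 UMIs, 164 at 13S with 7094), had 15.4% and 18.3% for HOXB9, at 59.1 and 91.6 CPM. They carried HOXB9 themselves and so gave no background for this gene. The thinned share in the MEOX1 set, 0.448% and 2.70%, lay far below theirs.

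MLLT3 encodes a reader of acylated histones in elongation complexes. Over all cells it was 17.8 CPM (16.8 to 18.9) at 10S and 29.2 CPM (27.8 to 30.7) at 13S, a log2 ratio of 0.72 (0.61 to 0.83). The log2 ratio of MLLT3 was 0.62 in the MSGN1 set, 0.77 in the MEOX1 set and 1.48 (1.01 to 1.96) in the PAX6 set, where the level went from 10.4 to 29.0 CPM. In the CHRD set it rested on 28 UMIs at each stage, and the interval of the log2 ratio, -0.10 to 1.52, held 0. With the CHRD set chosen again on thinned counts, the direction of MLLT3 turned (-0.44 on 16 UMIs). In the CHRD set as first defined, the thinned share of cells with an MLLT3 UMI was not higher at 13S. It was 4.91% (2.83% to 7.85%) at 10S and 4.21% (1.84% to 8.13%) at 13S. Its log2 ratio in the CHRD set was 0.01 with stricter marker minimums and 0.02 in cells with at most 5% mitochondrial UMIs. After thinning, the share of LMO2 cells with an MLLT3 UMI was 2.29% (0.925% to 4.66%) at 10S and 3.05% (0.997% to 6.97%) at 13S. The share of MEOX1 cells, 1.16% and 2.06%, lay within these intervals and could not be told apart from that of LMO2 cells. The share in the MSGN1 set was 5.98% and 7.92%, above the LMO2 cells.

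The remaining higher genes carry no symbol in the files. ENSGALG00000048465 was 7.97 CPM at 10S and 17.9 CPM at 13S over all cells, with log2 ratios from 0.95 in the CHRD set to 1.71 in the PAX6 set. Its level was 26.4 CPM at 4S and 23.9 CPM at 7S, so that 10S was the lowest of the 4 stages. Its log2 ratio in the CHRD set turned to -0.21 after thinning, on 23 UMIs. In LMO2 cells its thinned share was 2.61% (1.14% to 5.09%) and 3.05% (0.997% to 6.97%). Its share in MEOX1 cells, 1.16% and 2.96%, lay within these intervals and could not be told apart from that of LMO2 cells. The share in the PAX6 set, 0.943% at 10S and 4.08% at 13S, lay below the interval of the LMO2 cells at 10S and within it at 13S. ENSGALG00000042748 was 7.21 CPM at 10S and 14.2 CPM at 13S. It was highest in the CHRD set at both stages, with 30.8 CPM (23.2 to 39.9) at 10S and 63.6 CPM (49.7 to 80.3) at 13S, and its log2 ratios ranged from 0.60 in the MEOX1 set to 1.47 in the MSGN1 set. The MEOX1 ratio fell short of 1.5-fold with stricter marker minimums (0.48) and in cells with at least 5000 UMIs (0.56). It was 0.47 in cells with at most 5% mitochondrial UMIs and 0.22 in sets chosen on thinned counts. The thinned share of this gene was 1.63% (0.533% to 3.77%) at 10S and 1.83% (0.379% to 5.25%) at 13S in LMO2 cells. The MSGN1 set, with 1.45% and 4.30%, and the MEOX1 set, with 1.97% and 3.73%, lay within these intervals. They could not be told apart from the LMO2 cells. The PAX6 set, with 1.73% and 5.38%, lay within the interval at 10S and just above it at 13S. The CHRD set, with 6.44% and 14.7%, lay above the interval at both stages.

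**Figure D2:**
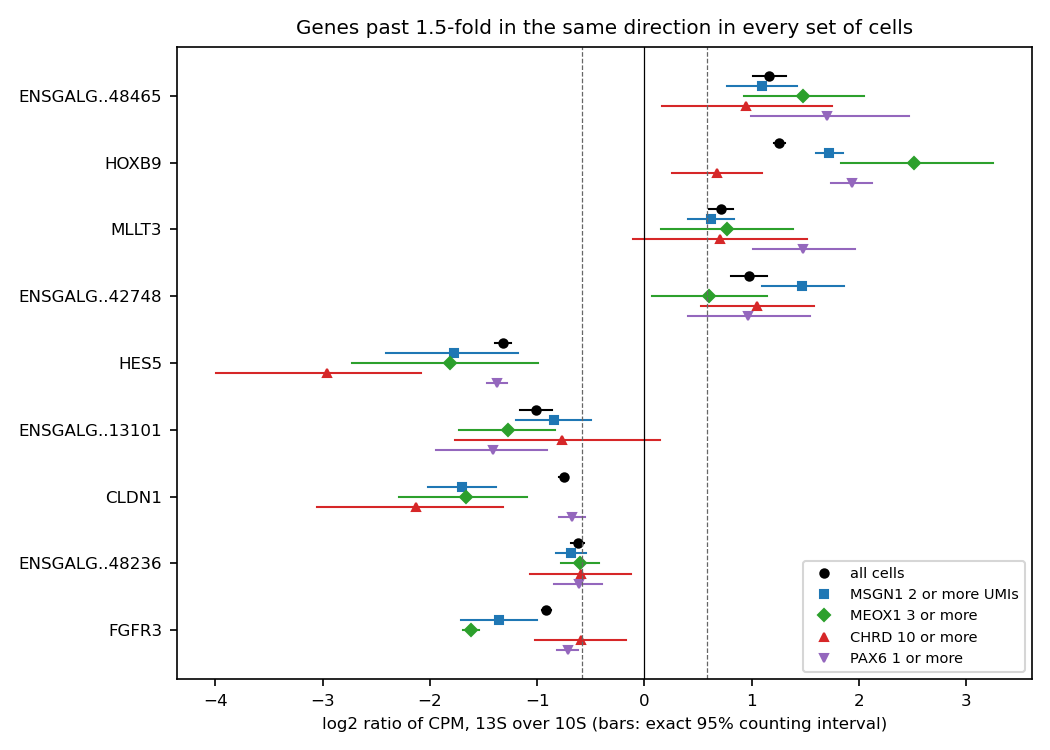
Log2 ratio of CPM at 13S over 10S for the 9 genes past 1.5-fold in every set, in all cells and in the 4 marker sets, with exact 95% counting intervals as bars and dashed lines at 1.5-fold. ENSGALG identifiers are shortened to their last 5 digits. Every point lies outside the dashed lines, and the CHRD set has wide intervals, those of MLLT3 and ENSGALG00000013101 crossing 0.

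HES5 had the largest difference of the 5 lower genes in each set except the PAX6 set. Its level over all cells was 96.1 CPM (93.7 to 98.5) at 10S and 38.5 CPM (36.9 to 40.2) at 13S, a log2 ratio of -1.32. Most HES5 UMIs lay in the PAX6 set, where the level was 646 CPM (625 to 669) at 10S and 250 CPM (236 to 264) at 13S, a log2 ratio of -1.37 (-1.47 to -1.28). In the CHRD set HES5 was 76.9 CPM from 140 UMIs at 10S and 9.86 CPM from 11 UMIs at 13S, a log2 ratio of -2.96, with an upper bound of -2.08. In the MSGN1 set it was 8.95 and 2.61 CPM, and in the MEOX1 set 8.43 and 2.39 CPM.

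The share of PAX6 cells with a HES5 UMI after thinning was 68.7% at 10S and 39.3% at 13S (84.1% and 67.0% unthinned), so that fewer cells carried it and its level was lower. In LMO2 cells the thinned share was 2.61% (1.14% to 5.09%) and 1.83% (0.379% to 5.25%). HES5 in the MSGN1 set, with 1.16% and 0.830%, and in the MEOX1 set, with 14 of 1117 cells and 4 of 777 cells (0.515%), lay below these shares at both stages. All lay within the intervals, so by share these sets could not be told apart from the LMO2 cells for HES5. The HES5 level in LMO2 cells was 16.4 CPM at 10S and 13.1 CPM at 13S, above that of both sets. Whether LMO2 cells carried HES5 themselves was not tested. HES5 in the CHRD set was above the LMO2 cells at 10S, with 7.67% of 326 cells. At 13S it was below them but within their interval, with 1.05% of 190 cells. In CHRD cells with at most 5% mitochondrial UMIs the log2 ratio of HES5 was -2.32 on 100 UMIs. In cells that still had at least 10 CHRD UMIs after thinning, a stricter choice, it was 0.11 on 5 UMIs.

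CLDN1 encodes a tight junction protein of epithelia. Over all cells it was 216 CPM (212 to 220) at 10S and 128 CPM (125 to 131) at 13S, a log2 ratio of -0.75 (-0.79 to -0.71). Its level was 333 and 192 CPM in cells of no set that had fewer than 3 LMO2 UMIs, and among the marker sets it was highest in the PAX6 set, with 273 and 171 CPM, where the log2 ratio of CLDN1 was -0.68 (-0.80 to -0.55). The differences were wider where the level was low, with 30.7 and 9.46 CPM in the MSGN1 set, 15.7 and 4.95 CPM in the MEOX1 set, and 54.9 and 12.5 CPM in the CHRD set. The thinned share of cells with a CLDN1 UMI was 3.27% (1.58% to 5.93%) at 10S and 1.83% (0.379% to 5.25%) at 13S in LMO2 cells. Their CLDN1 level was 26.3 CPM at 10S and 7.36 CPM at 13S, so that it was lower at 13S in these cells too. The MSGN1 set had 5.98% and 1.81%, the MEOX1 set 3.49% and 0.772% and the CHRD set 6.13% and 1.58%. Each of the 3 sets lay above the LMO2 cells at 10S, the MEOX1 set within their interval. At 13S all 3 lay within that interval and could not be told apart from the LMO2 cells. CLDN1 in the PAX6 set had 29.9% and 23.7%, and in the cells of no set with fewer than 3 LMO2 UMIs 33.2% and 25.4%.

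FGFR3, a receptor for fibroblast growth factors, was 218 CPM (215 to 222) at 10S and 116 CPM (113 to 118) at 13S over all cells, a log2 ratio of -0.92 (-0.96 to -0.87). Its highest level was in the MEOX1 set, 839 CPM (819 to 859) at 10S and 274 CPM (261 to 287) at 13S, a log2 ratio of -1.62 (-1.69 to -1.54). The PAX6 set went from 439 to 267 CPM for FGFR3, a log2 ratio of -0.72 (-0.82 to -0.62). In cells of no set the log2 ratio of FGFR3 was -0.45, short of 1.5-fold. Those of them with fewer than 3 LMO2 UMIs had 137 CPM at 10S and 97.5 CPM at 13S. The thinned share of MEOX1 cells with a FGFR3 UMI was 56.8% at 10S and 27.9% at 13S (69.2% and 38.7% unthinned), and of PAX6 cells 51.1% and 34.1%. LMO2 cells had 7.52% and 10.4%, at 42.7 and 106 CPM, so that their own level was higher at 13S and they gave no background for FGFR3. The MSGN1 set, with 3.83% and 1.58%, lay below them, at 20.9 and 8.20 CPM. The CHRD set, with 14.4% and 10.0%, lay above them at 10S and below them at 13S. In the CHRD set, with 89.0 and 59.2 CPM, the log2 ratio of -0.59 (-1.02 to -0.17) became 0.16 on 115 UMIs in cells with at most 5% mitochondrial UMIs.

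The remaining lower genes carry no symbol in the files. ENSGALG00000048236 was 97.5 CPM at 10S and 63.3 CPM at 13S over all cells, and its log2 ratios ranged from -0.59 in the CHRD set to -0.68 in the MSGN1 set, the narrowest range of the 9 genes. Its thinned share of cells with a UMI was 21.6% and 15.5% over all cells and 23.9% and 14.6% in LMO2 cells, a like share in both. ENSGALG00000013101 was 19.0 CPM at 10S and 9.47 CPM at 13S, with log2 ratios from -0.77 in the CHRD set to -1.41 in the PAX6 set. Its thinned share was 4.61% and 2.27% over all cells and 4.58% and 5.49% in LMO2 cells. Whether LMO2 cells carried it themselves was not tested, and they were not used as background for this gene. The MSGN1 set had 3.77% and 2.11%, and the MEOX1 set 4.30% and 2.57%. The CHRD set had 5.83% and 4.74%, and the PAX6 set 5.97% and 2.23%.

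The libraries at 4S and 7S did not enter the rule that chose these genes. From 4S to 7S, 3 of the 4 higher genes and 4 of the 5 lower genes were higher at 7S, against 59.7% of the 5061 assessed genes. HOXB9 continued in 1 direction over all cells, with 2.78, 21.6, 74.4 and 178 CPM from the earliest to the latest stage. MLLT3 did the same, with 7.65, 12.5, 17.8 and 29.2 CPM. CLDN1 was lower at each later stage, with 347, 302, 216 and 128 CPM. HES5 and FGFR3 had a maximum in between. HES5 over all cells was 7.39, 61.9, 96.1 and 38.5 CPM in the same order, and in the PAX6 set its maximum was at 7S, with 765 CPM. FGFR3 was 166 CPM at 4S and 401 CPM at 7S, before 218 and 116 CPM. The 10S to 13S difference of HES5 and FGFR3 was thus opposite in direction to their 4S to 7S difference.

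**Figure D3:**
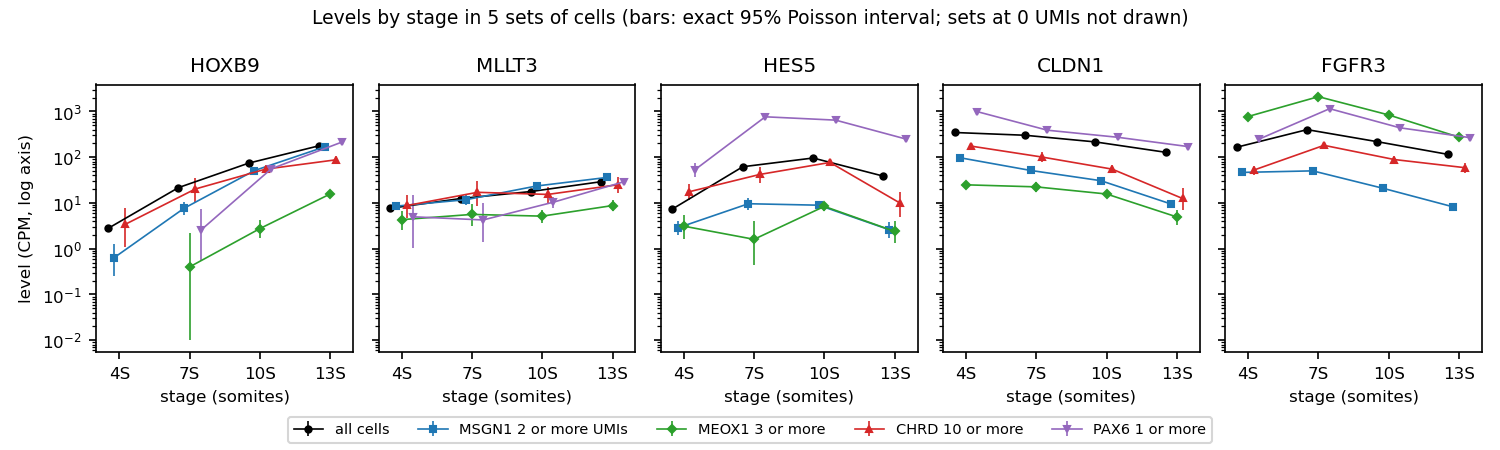
Level in CPM on a log axis at 4S, 7S, 10S and 13S of the 5 genes with a symbol that were past 1.5-fold in every set, in all cells and in the 4 marker sets, with exact 95% Poisson intervals as bars. HOXB9 and MLLT3 were higher at 13S than at 4S, CLDN1 was lower at each later stage over all cells, and HES5 and FGFR3 had a maximum at 7S or 10S over all cells.

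Among HOX paralogue groups with at least 50 UMIs over all cells, the summed level differed most in group 10 and next in group 9, and it was higher at 13S in both. Of 29 HOX genes with at least 50 UMIs over all cells, 12 were past 1.5-fold higher and none lower, beside 5.22% and 3.02% of all genes, and their median log2 ratio was 0.51, beside 0.02 over all genes on the same minimum. Of the 11 HOX genes assessed in every set, 8 were higher in every set by any amount, beside 14.0% of all assessed genes, and 1 was lower in every set, beside 20.9%. HOXB9 passed 1.5-fold in every set. The gene lower in every set was HOXB1, which was 155 CPM at 10S and 134 CPM at 13S over all cells, a log2 ratio of -0.21 (-0.26 to -0.17).

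The summed level of group 9 over all cells was 141 CPM at 10S and 343 CPM at 13S, and group 10 went from 1.88 CPM on 121 UMIs to 15.8 CPM on 857 UMIs. In group 10 HOXA10 had 98 and 565 UMIs, HOXC10 9 and 172, and HOXD10 14 and 120. Groups 7 and 8 differed less, with 947 and 1325 CPM and with 337 and 483 CPM. Group 13 was 4.27 and 7.03 CPM, and group 11 had 7 and 36 UMIs. HOXC8, with 20.7 CPM at 10S and 61.0 CPM at 13S, and HOXA9, with 43.9 and 113 CPM, had log2 ratios of 1.56 (1.47 to 1.65) and 1.37 (1.30 to 1.43) over all cells but too few UMIs in the CHRD set to be assessed there.

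The step differed in size between the sets. In the MEOX1 set group 6 went from 8.17 to 31.6 CPM, group 7 from 89.3 to 217 CPM and group 8 from 44.4 to 125 CPM. For groups 6 and 7 these were log2 ratios of 1.95 and 1.28, against 0.34 and 0.48 over all cells. HOXA6 in the MEOX1 set went from 7.42 to 26.3 CPM, a log2 ratio of 1.83 (1.39 to 2.28), while over all cells its log2 ratio was 0.13 (0.06 to 0.20). In the PAX6 set HOXA7 went from 492 to 1239 CPM, a log2 ratio of 1.33 (1.27 to 1.40), and HOXA9 from 10.2 to 71.6 CPM, a log2 ratio of 2.81 (2.38 to 3.26). In the CHRD set HOXA7 was 254 and 272 CPM, with a log2 ratio of 0.10 (-0.12 to 0.31), and HOXB8 was 237 and 248 CPM, with a log2 ratio of 0.07 (-0.16 to 0.29). The median log2 ratio of the 11 assessed HOX genes was 0.07 in the CHRD set, 0.30 in the MSGN1 set, 0.84 in the PAX6 set and 0.87 in the MEOX1 set, beside -0.05, -0.04, 0.01 and -0.02 over all 5061 genes.

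**Figure D4:**
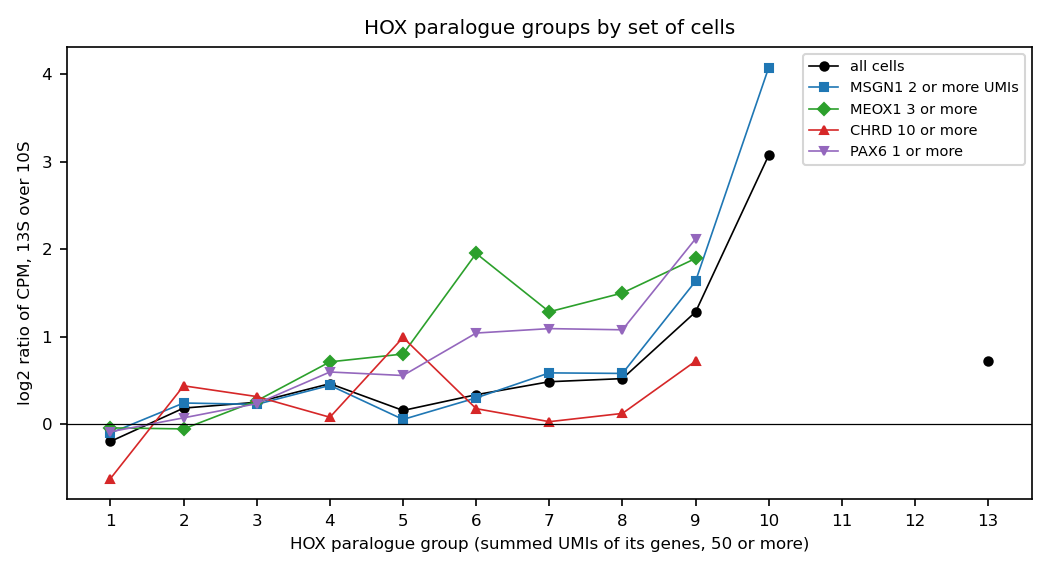
Log2 ratio of summed CPM at 13S over 10S for each HOX paralogue group with at least 50 UMIs, in all cells and in the 4 marker sets. Group 1 lies below 0 in all 5 sets, the ratio is largest in group 10 over all cells and in the MSGN1 set, and in groups 6 to 8 the MEOX1 set lies highest and the CHRD set lowest.

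Of the 11 assessed genes of FGF signalling, 5 were higher in every set by any amount, beside 14.0% of all assessed genes, and 1, FGFR3, was lower in every set, beside 20.9%. The other 5 went in different directions in different sets. The median log2 ratio of the list was 0.24 over all cells and 0.74 in the PAX6 set, beside -0.03 and 0.01 over all assessed genes. The summed level of the list differed less over all cells, with 1011 and 1058 CPM, and in the PAX6 set, with 978 and 984 CPM, and it was lower at 13S in the MEOX1 set, with 1447 and 1013 CPM, where FGFR3 gave 839 and 274 CPM of it. The ligand FGF8 was 47.2 CPM (45.5 to 48.9) at 10S and 64.7 CPM (62.6 to 66.9) at 13S over all cells. In the PAX6 set FGF8 went from 21.4 to 44.2 CPM, a log2 ratio of 1.04, and in the MSGN1 set from 62.7 to 91.2 CPM, a log2 ratio of 0.54. The feedback inhibitor SPRY2 had log2 ratios of 0.24 over all cells and 0.74 in the PAX6 set. IL17RD, another inhibitor of the pathway, had 0.68 over all cells and 1.28 in the PAX6 set. The receptor FGFR1 differed little, with 119 and 124 CPM over all cells.

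Of 8 assessed retinoic acid genes, 4 were lower in every set by any amount, beside 20.9% of all assessed genes, and none was higher in every set, beside 14.0%. Their median log2 ratio was -0.18 over all cells, beside -0.03 over all assessed genes. DHRS3 reduces retinaldehyde back to retinol and RDH10 makes retinaldehyde. DHRS3 was 25.9 CPM (24.6 to 27.1) at 10S and 17.2 CPM (16.1 to 18.3) at 13S over all cells, with a log2 ratio of -1.99 (-2.85 to -1.23) in the CHRD set. RDH10 was highest in the MEOX1 set, with 319 and 234 CPM, and its log2 ratio there was -0.44.

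Of the 20 assessed genes of the cholesterol and lipid list 12 were lower in every set by any amount, beside 20.9% of all assessed genes, and 1 was higher, beside 14.0%. The median log2 ratio was -0.19 over all cells, -0.07 in the MSGN1 set, -0.33 in the PAX6 set, -0.49 in the MEOX1 set and -0.54 in the CHRD set. The summed level of the list differed little over all cells, with 2985 and 2926 CPM, a log2 ratio of -0.03. For the summed level the log2 ratio was 0.01 in the MSGN1 set and -0.06 in the PAX6 set. It was -0.19 in the MEOX1 set and -0.55 in the CHRD set. Past 0.32 on the log2 scale in every set were DHCR7, which catalyses the last step of cholesterol synthesis, and INSIG1, a sterol-regulated brake on the pathway. INSIG1 in the MEOX1 set went from 94.2 to 46.1 CPM, a log2 ratio of -1.03 (-1.23 to -0.83). DHCR7 over all cells was 43.6 and 32.3 CPM.

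Of the 13 mitochondrial genes 11 were higher in every set by any amount, beside 14.0% of all assessed genes, with a median log2 ratio of 0.15 over all cells beside -0.03, and ATP8, with 22.9 and 35.2 CPM, was past 0.32 on the log2 scale in every set. Of 67 ribosomal protein genes 37 were higher in every set, beside 14.0% of all assessed genes, and 10 lower, beside 20.9%. Their median was 0.04 over all cells, so that the differences were small. Of 26 S phase genes 13 were lower in every set, beside 20.9% of all assessed genes, at a median of -0.10. None of the 36 assessed genes of the G2M list or the 15 of the dissociation list was past 0.32 on the log2 scale in every set. Of all assessed genes 0.613% were past it higher and 0.435% lower, so that none in lists of this size is near the share over all genes. On chromosome Z, by the annotation of GRCg7b, 201 genes were assessed, and their median was -0.07 over all cells and 0.12 in the PAX6 set. MLLT3 was the 1 of them past 1.5-fold in every set, higher at 13S, beside 0.0790% of all assessed genes.

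**Figure D5:**
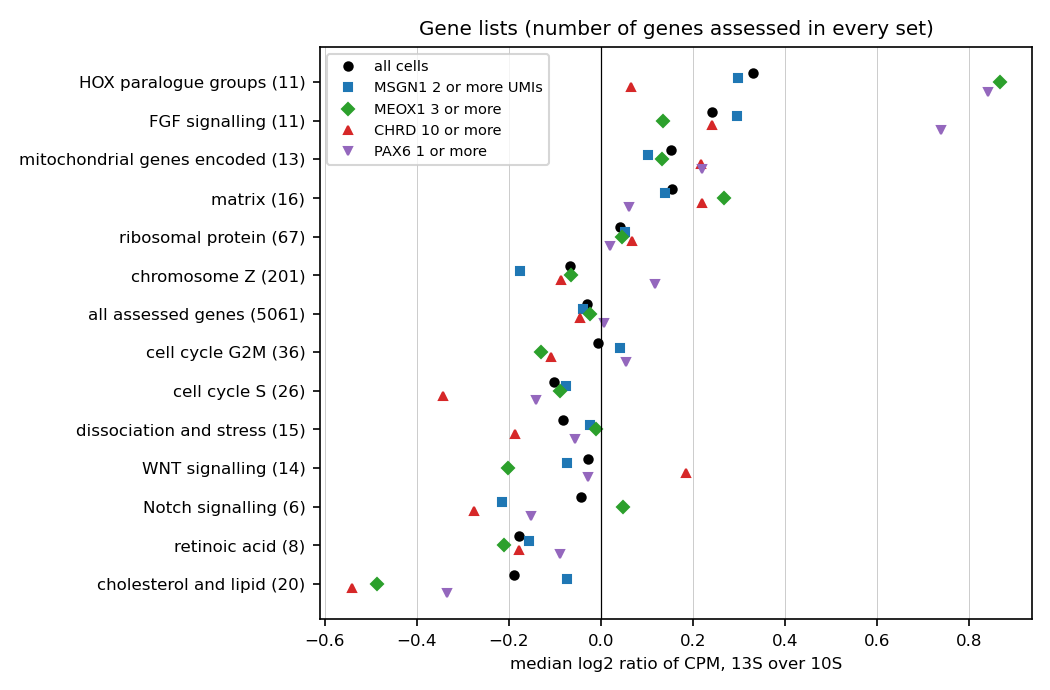
Median log2 ratio of CPM at 13S over 10S for 13 gene lists and for all 5061 assessed genes, in all cells and in the 4 marker sets, with the number of assessed genes in brackets. HOX and FGF genes lie furthest to the right, in the MEOX1 and PAX6 sets for HOX and in the PAX6 set for FGF, and the cholesterol and lipid list lies furthest to the left in the MEOX1 and CHRD sets.

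Past 0.32 on the log2 scale, 31 genes (0.613%) were higher in every set and 22 (0.435%) lower. Among the higher were the axon guidance receptor ROBO2, with 6.78 and 13.9 CPM over all cells, the RNA-binding protein LIN28B, a regulator of developmental timing, with 36.4 and 47.7 CPM, and the calcium-binding protein S100A11, with a log2 ratio of 0.86 (0.79 to 0.93) over all cells. The peroxidase PXDN, the junction scaffold TJP1, the guanine nucleotide exchange factor TIAM1 and the RNA-binding protein MEX3B were also among them. ROBO2 went from 20.1 to 39.9 CPM in the PAX6 set. Among the lower was the cadherin CDH20, with 35.1 and 15.1 CPM over all cells, which was highest in the MEOX1 set, with 230 CPM (220 to 241) at 10S and 103 CPM (94.9 to 111) at 13S. CDH20 in the CHRD set had 51 UMIs, and the interval of its log2 ratio, -1.38 to 0.47, held 0. The amino acid transporter SLC38A2, with 59.0 and 44.8 CPM, and the telomere protein TERF2, with 38.6 and 29.2 CPM, were lower by less.

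The CHRD set held the fewest UMIs, and without it 7515 genes were assessed, of which 23 were past 1.5-fold higher in the other 4 sets and 16 lower. RIPPLY2, a repressor that ends segment formation, was 16.1 CPM (15.2 to 17.1) at 10S and 54.5 CPM (52.5 to 56.5) at 13S over all cells. Most of its UMIs came from the MEOX1 set, where it went from 98.6 to 428 CPM, and its level there was 300 CPM at 4S and 299 CPM at 7S, so that for RIPPLY2 the 10S library was the lowest of the 4. In the PAX6 set RIPPLY2 had 13 UMIs at 10S and 116 at 13S, and 78 of these came from 1 cell. HOXA9, HOXD8 and PAX3, a regulator of dermomyotome and dorsal neural tube, were higher as well, PAX3 on few UMIs with 2.79 and 4.39 CPM. Among the lower genes were NOXO1, which organizes a NADPH oxidase, and DRAXIN, a secreted guidance and WNT inhibitor protein. NOXO1 was 196, 171, 40.5 and 9.65 CPM from 4S to 13S over all cells, but 76.9 and 93.2 CPM at 10S and 13S in the CHRD set. DRAXIN was 26.5 and 10.5 CPM over all cells and 19.8 and 11.7 CPM in the CHRD set, on 49 UMIs.

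Other genes were past 1.5-fold in a marker set while over all cells they differed by less than 0.32 on the log2 scale or in the other direction. In the MSGN1 set CCN3, a matricellular protein, went from 7.98 to 19.0 CPM, with an interval of the log2 ratio from 0.91 to 1.60, and over all cells it was 17.8 and 16.5 CPM. SLITRK3 was higher there too, on 52 UMIs. Lower in the MSGN1 set were CA2 and MOXD1, on 68 and 54 UMIs, and TRABD2A, a WNT-cleaving protease, which went from 8.43 to 2.43 CPM. In the MEOX1 set MNX1, a homeobox gene of notochord, gut and motor neurons, went from 47.9 CPM (43.2 to 53.0) to 13.7 CPM (11.0 to 17.0), a log2 ratio of -1.80. Its 381 UMIs at 10S lay in 53 of the 1117 cells. NEK3 was higher in the MEOX1 set and DNAAF2 and C9H2ORF82 lower, each on 110 UMIs or fewer.

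In the CHRD set SPON1, a secreted protein of the floor plate, went from 40.6 CPM (31.9 to 51.0) to 102 CPM (84.3 to 123), a log2 ratio of 1.33 (0.90 to 1.77). CHST9 and KRT7 were higher there on 56 and 50 UMIs, and RSRP1 lower on 75 UMIs. Blood and endothelial markers were also higher in the CHRD set at 13S, as given above. In the PAX6 set CSRP2, a LIM protein, went from 10.2 to 27.8 CPM, and TRABD2A from 5.51 to 16.5 CPM. MESP1 in the PAX6 set had 7 UMIs at 10S and 62 at 13S, and 37 of the UMIs came from 1 cell. HBZ, an embryonic globin, had 167 and 49 UMIs there, and 142 of those came from 1 cell. TWIST1 and MNX1 were lower in the PAX6 set, with 14.7 and 4.84 CPM for TWIST1 and 8.65 and 2.42 CPM for MNX1.

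The largest ratios of genes higher over all cells belonged to globins and HOX group 10 genes. All 5 globins with enough UMIs were past 1.5-fold higher over all cells, beside 5.22% of all genes on the same minimum. The summed globin level went from 9.34 to 99.0 CPM, on 602 and 5366 UMIs. In the PAX6 set it went the other way, from 46.6 to 12.7 CPM, on 237 and 63 UMIs. Most of these UMIs at 10S were HBZ UMIs of 1 cell, as given above, so the direction there rested on that cell. HBZ had 2606 UMIs in 184 cells at 13S, up to 527 in 1 cell. No globin was assessed in every set. GDF11, a ligand that marks the change from trunk to tail, had 42 UMIs at 10S and 120 at 13S over all cells, 0.652 and 2.21 CPM. On the lower side CFC1, a NODAL co-receptor that ranked 37 over all cells, was 74.8 and 27.5 CPM there. In the MSGN1 set CFC1 was 49.7 and 6.85 CPM, a log2 ratio of -2.86 (-3.22 to -2.52), while in the CHRD set it was 197 and 195 CPM.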

How the data were processed

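Per the labels and the study's methods, the authors aligned the reads with Cell Ranger 4.0.0 to GRCg6a with a custom annotation, obtained UMI counts with DropEst, and filtered each stage for low totals, high mitochondrial share and doublets (Scrublet) before deposit. The deposited counts were not normalized. A cell's stage came from the prefix of its name. UMIs of cells with at least 2500 UMIs were summed per library and set, and CPM used the total of each sum. A gene was assessed with at least 50 UMIs over both libraries in every set and counted as called past 1.5-fold in every set. Levels rest on 64453991 UMIs at 10S and 54196129 at 13S. Named were up to 12 genes per direction ranked by their smallest ratio over the 5 sets, list genes among the called, the 3 genes per marker set and direction with the largest ratio and little or opposite difference over all cells, markers and HOX genes. Other genes named, among them those assessed without the CHRD set, GDF11, CFC1, SPRY2, IL17RD, FGFR1, PXDN, TJP1 and TERF2, and the LMO2 comparison cells, were chosen after their values were seen. The members and lists were chosen with earlier results of these data known. Of 12391 symbols 11811 matched 1 chromosome in the GRCg7b annotation. None of 15 W-linked gene names was found, and the paper states that W chromosome genes were left out because of embryo sex. The 8937 genes given by Ensembl identifier were not paired with symbols, and no sequence was used. Scripts were tested on simulated data. Python 3.11.15, numpy 2.4.6, scipy 1.17.1, pandas 2.3.3 and matplotlib 3.10.9 were used. Alternatives changed the scaling, cell weighting, gates, depth, cell filters, count minimum, fold and sets. Some results are not reported here because they concern items withheld for evaluation.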

Additional observations from a re-analysis of the deposited data

Results flagged for a closer look

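Named genes past 1.5-fold in opposite directions in a pair of marker sets, each with at least 50 UMIs, were TRABD2A, MNX1, KRT7 and TWIST1. Of 8414 genes with that many UMIs in at least 2 marker sets, 40 had opposite directions (0.475%). TRABD2A had a log2 ratio of 13S to 10S of -1.79 in the MSGN1 set and 1.59 in the PAX6 set. MNX1 had -1.80 in the MEOX1 set and -1.84 in the PAX6 set, but 0.64 in the CHRD set, where its level was highest. KRT7, an epithelial keratin, had -0.60 in the MSGN1 set, 1.54 in the CHRD set and 0.71 in the PAX6 set. TWIST1, a mesenchymal regulator, had 0.59 in the MSGN1 set, 0.91 in the CHRD set and -1.61 in the PAX6 set. With 1 library per stage these differences between sets were not tested.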

How the results depend on the processing

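The count of genes past 1.5-fold in every set was 4 higher and 5 lower as reported, and it depended on most settings. It was 4 and 3 with median ratio size factors, 2 and 4 with each cell weighted alike, 4 and 2 with disjoint sets, 2 and 0 with stricter marker minimums, 0 and 0 after thinning to 2500 UMIs, 0 and 3 in cells with at least 5000 UMIs, 0 and 1 in cells with at most 5% mitochondrial UMIs, and 3 and 3 without the 5% of cells with the most UMIs. Fewer genes were assessed in several of these, 2242 after thinning and 3392 at the mitochondrial limit. The count was 14 and 11 at a minimum of 20 UMIs, 0 and 1 at 200 UMIs, 31 and 22 at the lower fold, 0 and 1 at 2-fold, 23 and 16 without the CHRD set, 5 and 8 without the PAX6 set, and 7 and 6 without the MEOX1 set. It was within 1.5 times of that reported in both directions without genes over 1% of the sums, standardised to pooled shares, with looser minimums and without the MSGN1 set. With looser minimums the genes were partly others, since 2 of the 4 higher and 3 of the 5 lower were kept, without HOXB9, MLLT3, FGFR3 and ENSGALG00000048236. Beyond fewer genes assessed, the cause was not tested. HOXB9 was the 1 higher gene kept with stricter minimums and was lost with looser minimums, after thinning, at 5000 UMIs and at the mitochondrial limit. HES5 was the 1 lower gene at 2-fold and FGFR3 at 200 UMIs. Stricter and looser minimums leave the sum over all cells as it is. Of 918 log2 ratios over all cells of 102 named genes under the other 9 settings, 812 lay within the reported counting interval and 106 outside it. The sign was the other one for 23, none of them of a gene past 1.5-fold over all cells. Thinning was followed by a new choice of the sets on the thinned counts, so its CHRD set was not the same cells. There the sign turned for MLLT3 (-0.44), ENSGALG00000048465 (-0.21) and HES5 (0.11). In the CHRD set as first defined, the thinned share of cells with a HES5 UMI was 7.67% at 10S and 1.05% at 13S. At the mitochondrial limit the sign turned within the CHRD set for FGFR3 (0.16). No paired analysis was possible because each stage had 1 library. Depth limited the CHRD set most, and the spread between embryos could not be estimated.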
